A study of Mus musculus with 4 samples.

Results

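The annexins are a family of calcium-dependent membrane proteins, and 8 genes of the family, Anxa1, Anxa2, Anxa3, Anxa4, Anxa5, Anxa6, Anxa7 and Anxa11, are described here across the cells of 4 mouse tumour libraries. They were found by symbol, and all 8 were among the 32285 genes of the lung matrices and the 31053 genes of the allograft matrices. The family was selected on the levels of Anxa5 and Anxa1, which differed between libraries, so their differences between libraries are given as a description and no test was made of them. CRPR2 and RPR2 were lung tumours of mouse small cell lung cancer, a neuroendocrine carcinoma. The labels do not spell these names out. In this field RPR2 stands for loss of Rb1, Trp53 and Rbl2, so that both lung groups carry these losses, and CRPR2 for the same with loss of Cracd, a regulator of actin capping. The other pair were allograft tumours grown from preSC cells, a mouse line of precancerous neuroendocrine cells, with the genotypes CracdKO (preSC_CracdKO) and WT (preSC_WT). The labels give no age, strain, host or promoter for the Cre, nor whether the CracdKO cells were 1 clone.

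Each group was 1 library of single cells, made with a droplet method that counts RNA molecules at their 3-prime end by unique molecular identifiers (UMIs). There was therefore no replicate of any group, no p-value was computed, and every interval below covers counting error alone. CRPR2 held 12164 cell barcodes and 61917754 UMIs, and RPR2 held 9215 barcodes and 42592323 UMIs. The library labelled preSC_CracdKO held 16282 barcodes and 110576113 UMIs, and that labelled preSC_WT held 18559 barcodes and 93376185 UMIs. Median UMIs per barcode were 3300.5, 2873, 5996 and 4023 in the same order. Libraries shared 36 to 79 barcodes with each other, which was 0.391% to 0.629% of the smaller library. In tumour-like cells Cracd, listed under its older symbol C530008M17Rik, stood at 23.6 CPM in CRPR2 and 31.6 CPM in RPR2, where CPM are counts scaled so that those of every class have the same sum. It stood at 84.6 CPM in the library labelled preSC_CracdKO and 7.20 CPM in that labelled preSC_WT, so the library labelled as knockout had the higher level. These are RNA counts at the 3-prime end, which do not show whether the gene was disrupted, and the cause was not tested. The allografts are therefore called by their labels only, and no direction in that pair is ascribed to Cracd.

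An annexin binds acidic phospholipids, chiefly phosphatidylserine, on the inner side of a membrane once calcium rises. A conserved core of repeats carries the calcium sites, and a head that differs between members binds partners such as the small S100 proteins. Anxa1 is known as a glucocorticoid-induced, anti-inflammatory protein that acts outside the cell on formyl peptide receptors. Anxa2 forms a complex with S100a10 at the plasma membrane and binds plasminogen. Anxa5 binds phosphatidylserine exposed on dying cells and is used as the reagent that stains them. Anxa6 has a doubled core and acts in membrane repair and in cholesterol traffic. Anxa4 is typical of secretory epithelia, Anxa3 of neutrophils and some epithelia, Anxa7 acts in secretion, and Anxa11 links RNA granules to lysosomes.

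On the GENCODE M21 annotation of GRCm38 (mm10), Anxa1 spans 20373428 to 20390944 of chromosome 19 on the minus strand. Anxa5 spans 36448923 to 36475894 of chromosome 3 on the minus strand. Anxa2 lies on the plus strand of chromosome 9 from 69453620 to 69491795, and Anxa3 on the plus strand of chromosome 5 from 96793339 to 96845966. Anxa4 lies on chromosome 6 from 86736840 to 86793584 and Anxa6 on chromosome 11 from 54979108 to 55033445, both on the minus strand. Anxa7 and Anxa11 share chromosome 14, where Anxa7 runs on the minus strand from 20455260 to 20480133 and Anxa11 on the plus strand from 25842156 to 25886804. All 8 are protein-coding. Anxa11 overlaps an antisense gene, Anxa11os, which stood below 1 CPM in the tumour-like cells of all 4 libraries.

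The 250 bases before the RefSeq start of Anxa1, Anxa5 and Anxa2 are shown because Anxa1 and Anxa5 went opposite ways in the allografts, and because Anxa2 and Anxa5 were the members most alike in their levels over classes of cells. The sequences are from RefSeq on GRCm38.p6, each on the strand of its gene, and capitals mark the motifs searched on both strands, which were the TATA box TATAAA, the box CCAAT, the GC box GGGCGG and the AP-1 site TGANTCA.
Anxa1 promoter, chr19:20390672-20390921, minus strand: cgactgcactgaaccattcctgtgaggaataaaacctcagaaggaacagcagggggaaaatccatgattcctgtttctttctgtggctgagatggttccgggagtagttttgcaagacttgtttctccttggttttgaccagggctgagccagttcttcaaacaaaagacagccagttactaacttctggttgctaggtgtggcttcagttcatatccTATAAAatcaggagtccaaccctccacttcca
Anxa5 promoter, chr3:36475888-36476137, minus strand: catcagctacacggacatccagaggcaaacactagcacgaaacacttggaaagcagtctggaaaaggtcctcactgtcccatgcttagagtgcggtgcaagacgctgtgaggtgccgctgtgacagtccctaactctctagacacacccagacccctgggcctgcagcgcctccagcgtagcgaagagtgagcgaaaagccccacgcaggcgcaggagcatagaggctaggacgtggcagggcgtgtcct
Anxa2 promoter, chr9:69453433-69453682, plus strand: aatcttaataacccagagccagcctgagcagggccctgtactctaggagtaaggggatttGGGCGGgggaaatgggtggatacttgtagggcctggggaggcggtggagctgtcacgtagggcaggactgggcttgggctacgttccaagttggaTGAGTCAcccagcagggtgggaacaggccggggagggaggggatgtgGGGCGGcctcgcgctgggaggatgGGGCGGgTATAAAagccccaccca
The Anxa1 window held 1 TATA box, which began 32 bases before the start, and none of the other motifs. The Anxa2 window held 1 TATA box beginning 17 bases before the start, 3 GC boxes and 1 AP-1 site. None of the 4 motifs was in the Anxa5 window, which says only that these letters are not there. G and C made up 46.0% of the Anxa1 window, 58.8% of that of Anxa5 and 62.4% of that of Anxa2. Among 32851 promoters of the same length, 12.4% held the TATA box, 33.8% CCAAT, 32.7% the GC box and 6.75% the AP-1 site.

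After filters, 10817 cells of CRPR2, 8869 of RPR2, 14054 of the library labelled preSC_CracdKO and 18112 of that labelled preSC_WT were clustered within each pair and named from marker genes. Tumour-like cells, recognised by Calca and other neuroendocrine genes, numbered 6596 in CRPR2 and 3053 in RPR2, and 13082 and 11665 in the libraries labelled preSC_CracdKO and preSC_WT. Of 19 tumour markers, 17 or 18 were raised in the tumour-like clusters of the lung. In those mostly of the library labelled preSC_CracdKO 8 to 10 were raised, and in those mostly of that labelled preSC_WT 12 to 18. Raised means seen in a minimum share of cells and about 2-fold or more above the median of the named non-tumour clusters of the pair. A marker can thus be detected and not counted. For each library and class the UMIs of all cells were added up and scaled by their total to CPM. A member was called different where its CPM was at least 2-fold higher in 1 library and at least 20 CPM there. These are 3-prime counts, so the levels of a gene are compared between cells and not with those of another gene.

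Among lung tumour-like cells, Anxa5 was the only member called different between CRPR2 and RPR2. Anxa5 stood at 180.3 CPM in CRPR2 (4811 UMIs) and 72.4 CPM in RPR2 (1616 UMIs), a ratio of 2.49 (95% interval 2.35 to 2.64). Of the 7 members at 20 CPM or more in either library, 1 was called higher and 0 lower, and over all 7200 genes measured 1.19% were called in either direction and 0.569% higher in CRPR2. The median log2 ratio was 0.27 over the 7 members and -0.03 over all genes measured. Since Anxa5 was chosen for this difference, its share of the calls is a description.

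The other members of the lung pair lay closer together. Anxa1 stood at 415 CPM in CRPR2 and 343 CPM in RPR2, a ratio of 1.21 (1.17 to 1.25). Anxa2 stood at 49.5 CPM in CRPR2 and 35.5 CPM in RPR2, a ratio of 1.39 (1.27 to 1.52). Neither reached the 2-fold of the rule. Anxa4 had 137 CPM in CRPR2 and 113 CPM in RPR2, and Anxa11 had 102 CPM and 89.9 CPM. Anxa7 had 67.7 CPM in CRPR2 and 61.5 CPM in RPR2. For Anxa6, with 35.3 CPM in CRPR2 and 32.6 CPM in RPR2, the interval of the ratio ran from 0.982 to 1.19 and so held 1. Anxa3 was below the 20 CPM of the rule in both libraries, at 7.61 CPM in CRPR2 and 3.27 CPM in RPR2, with a ratio of 2.33 (1.77 to 3.08).

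Depth differed between these classes, with a median of 3370 UMIs per tumour-like cell in CRPR2 and 6056 in RPR2. When every cell was thinned to 1000 UMIs, which left out 402 cells of CRPR2 and 87 of RPR2, 15.4% of CRPR2 cells (14.5% to 16.3%, exact Clopper-Pearson) and 6.41% of RPR2 cells (5.55% to 7.35%) held an Anxa5 UMI. Unthinned, the shares were 42.0% in CRPR2 and 31.1% in RPR2. For Anxa1 the thinned shares were 24.6% in CRPR2 and 21.8% in RPR2, whereas the unthinned ones ran the other way, at 50.2% in CRPR2 and 56.0% in RPR2. Markers of other cell classes were also counted in tumour-like cells, at levels that differed between the libraries. Club cell markers summed to 702 CPM in CRPR2 and 128 CPM in RPR2 tumour-like cells, which was 0.323% and 0.0727% of their sum in the club-like cells of the same libraries. Fibroblast markers summed to 399.9 CPM in CRPR2 and 289 CPM in RPR2, which was 2.87% and 3.25% of their sum in the 142 and 45 fibroblast-like cells. At those shares the Anxa5 of fibroblast-like cells comes to 18.4 CPM in CRPR2 and 15.2 CPM in RPR2, and their Anxa1 to 12.6 CPM and 8.44 CPM. Macrophage markers summed to 26.1 CPM in CRPR2 and 20.4 CPM in RPR2, which was 0.106% and 0.0746% of their sum in macrophage-like cells. Whether these marker counts were RNA of other cells or of the tumour-like cells themselves was not tested, nor was their part in the annexin levels.

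**Figure D1:**
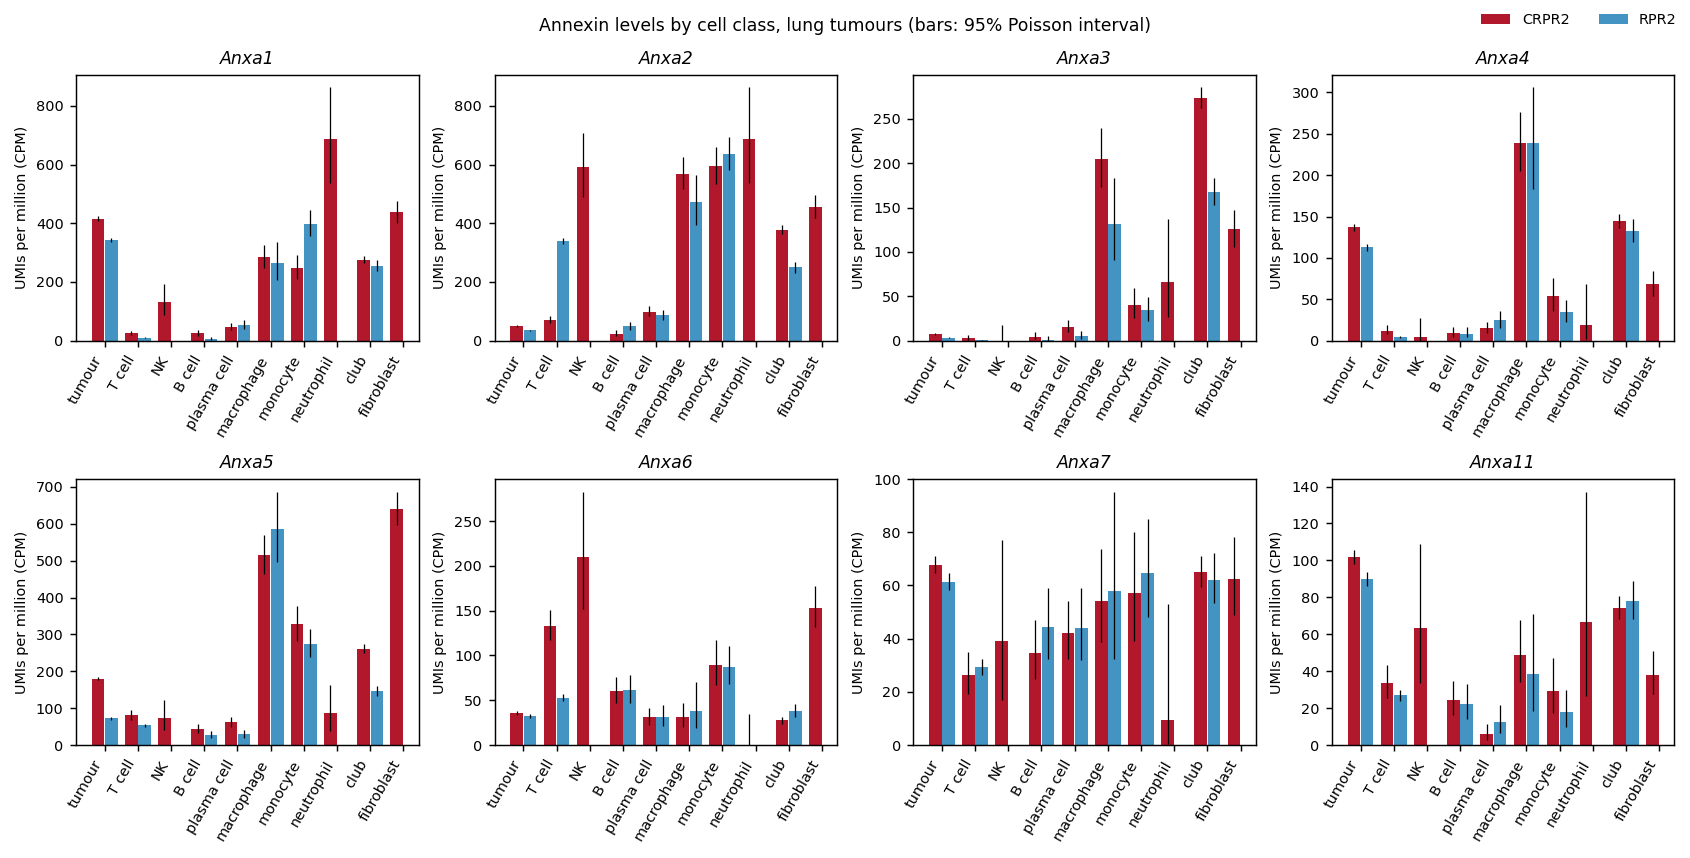
Each panel shows 1 annexin in CPM (vertical axis) in the cell classes of the lung tumours (horizontal axis) for CRPR2 (red) and RPR2 (blue), drawn where a library held at least 50 cells of the class, with 95% Poisson intervals. Anxa5 in tumour-like cells stands at 180.3 CPM in CRPR2 and 72.4 CPM in RPR2, below its level in macrophage-like cells of both libraries, at 515 and 586 CPM.

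The lung tumour-like cells fell into 8 clusters, of which 7 held at least 50 cells of each library. Anxa5 was higher in CRPR2 in all 7, with ratios from 2.04 in cluster 0 to 3.33 in cluster 8 and a median of 2.66. Cluster 0 was led by immediate early genes such as Fos and Egr3, and cluster 8 by Crabp1 and the cyclins Ccne1 and Ccne2. Anxa2, Anxa3 and Anxa4 were also higher in CRPR2 in each of the 7 clusters, with median ratios of 1.39, 2.61 and 1.12. Anxa1 was higher in 5 of the 7, with ratios from 0.876 in cluster 0 to 1.58 in cluster 5. Anxa6 and Anxa7 were each higher in 4 of the 7, and Anxa11 in 6. The clusters were made from these same cells, so these counts describe them.

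Cluster 5 held the highest levels of several members in both libraries. It was led by Tph1, the enzyme that begins serotonin synthesis, with the peptide genes Cartpt, Iapp and Gal. Anxa1 stood there at 849.6 CPM in CRPR2 and 537 CPM in RPR2. Anxa5 stood at 291 CPM in CRPR2 and 139.9 CPM in RPR2, and Anxa2 at 109.5 CPM and 75.6 CPM. Cluster 8 lay at the other end for Anxa5, at 115 CPM in CRPR2 and 34.6 CPM in RPR2. In cluster 8 Anxa1 stood at 222 CPM in CRPR2 and 159 CPM in RPR2. The lowest Anxa1 of CRPR2, 139 CPM, was in cluster 13, which held 355 cells of CRPR2 and 12 of RPR2. Anxa4 and Anxa11 spread less, by 1.96-fold and 1.47-fold from the lowest to the highest cluster of CRPR2. In RPR2 those spreads were 1.83-fold and 1.35-fold.

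**Figure D2:**
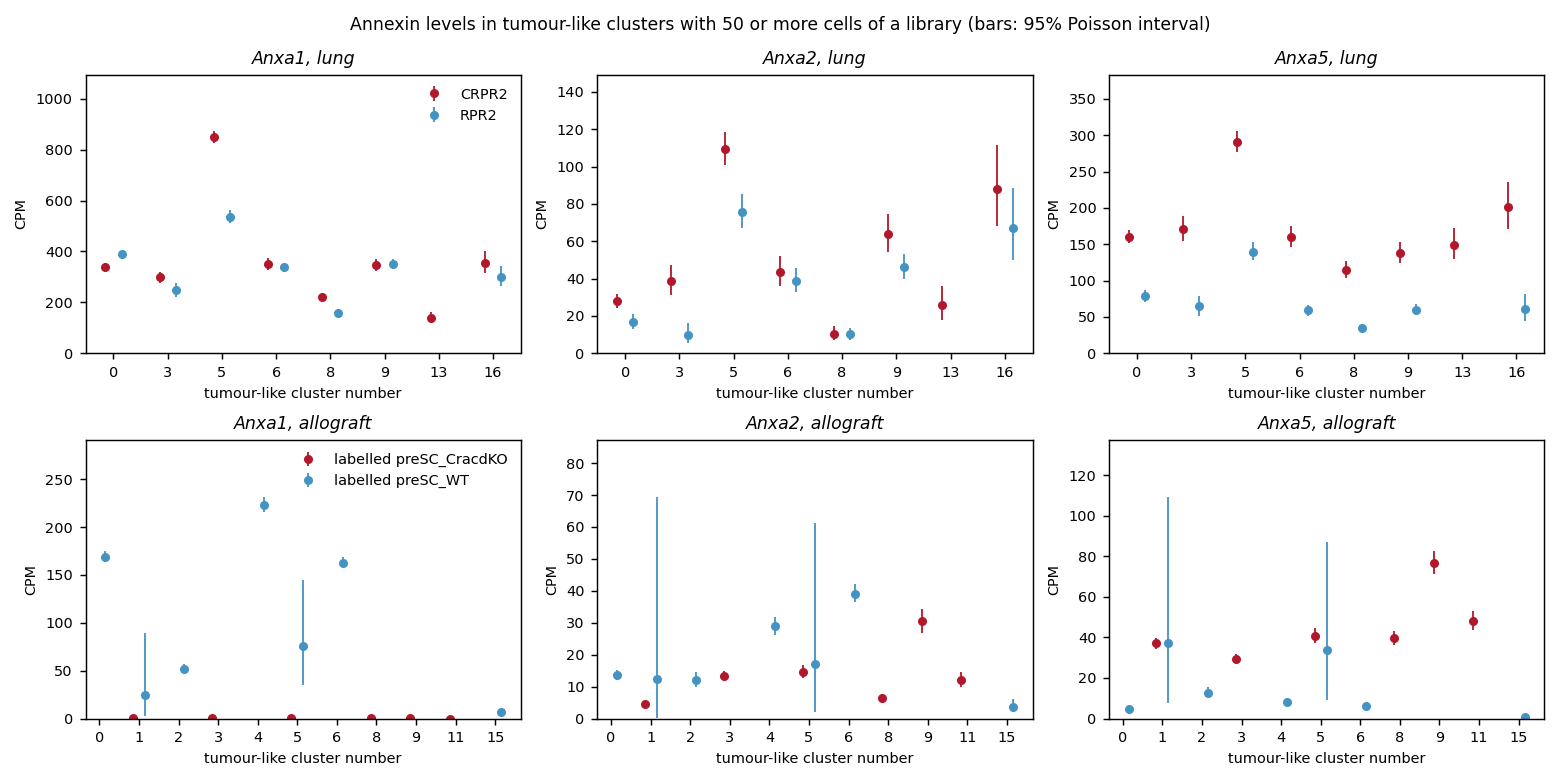
Points give the CPM (vertical axis) of Anxa1, Anxa2 and Anxa5 in each tumour-like cluster (horizontal axis, by number) with at least 50 cells of a library, with 95% Poisson intervals; the upper row is lung and the lower row allograft, with CRPR2 or the library labelled preSC_CracdKO in red and RPR2 or that labelled preSC_WT in blue. Anxa5 is higher in CRPR2 than in RPR2 in all 7 shared lung clusters, and Anxa1 of the allografts lies near 0 in every cluster of the library labelled preSC_CracdKO.

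The levels of the partners named for the annexins were read in the same lung tumour-like cells. S100a11, a partner of Anxa1, stood at 176 CPM in CRPR2 and 71.2 CPM in RPR2, a ratio of 2.47 (2.33 to 2.62), and was called higher. S100a10, the partner of Anxa2, stood at 132 CPM in CRPR2 and 79.9 CPM in RPR2, a ratio of 1.66 (1.56 to 1.75). S100a6, which binds several annexins, stood at 116 CPM and 58.9 CPM, a ratio of 1.97 (1.85 to 2.11). Of the 5 genes listed as S100 partners 3 were measured at 20 CPM or more, 1 was called higher and 0 lower, with a median log2 ratio of 0.97. Over all genes measured in tumour-like cells 1.19% were called, and the median log2 ratio was -0.03. No gene was called among the other lists, which were 6 calcium-binding partners measured of 7 (Pdcd6, Sri and the calpains among them), 2 membrane repair genes of 10, 2 plasminogen genes of 6, 6 phosphatidylserine exposure genes of 10 and 3 phosphatidylserine bridges and receptors of 14. From each of these lists the 1 gene with the most counts is given, which were Pdcd6, at 124 CPM in CRPR2 and 102 CPM in RPR2, Chmp4b of membrane repair, at 146 CPM and 152 CPM, and Plgrkt, a plasminogen receptor, at 52.2 CPM and 74.2 CPM. Tmem30a, a subunit of the flippases that keep phosphatidylserine inside the cell, stood at 158 CPM in CRPR2 and 153 CPM in RPR2, and Adgrb1, a receptor for exposed phosphatidylserine, at 53.8 CPM and 43.4 CPM. The formyl peptide receptors and the phospholipase Pla2g4a were all below 20 CPM, with 5 UMIs or fewer in either library. The other annexins Anxa8, Anxa9, Anxa10 and Anxa13 were also below it, at most at 1.76 CPM, which was Anxa10 in CRPR2.

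Allograft tumour-like cells gave another pattern, in which Anxa5 was higher in the library labelled preSC_CracdKO while Anxa1 and 3 more members were lower. Of the 7 members measured, 1 was called higher and 4 lower. Over all 8158 genes measured, 21.8% were called in either direction, 7.1% higher and 14.7% lower. The median log2 ratio was -1.20 over the 7 members and -0.16 over all genes.

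Anxa1 was nearly undetected in the library labelled preSC_CracdKO, with 5 UMIs over 13082 tumour-like cells. That is 0.0585 CPM, against 154 CPM (10242 UMIs over 11665 cells) in the library labelled preSC_WT, a ratio of 0.000379 (0.000123 to 0.000884). Thinned to 1000 UMIs, 0.00772% of cells of the library labelled preSC_CracdKO (0.000195% to 0.0430%) and 11.8% of cells of that labelled preSC_WT (11.2% to 12.4%) held an Anxa1 UMI. Anxa5 went the other way, at 41.3 CPM (3534 UMIs) in the library labelled preSC_CracdKO and 7.02 CPM (466 UMIs) in that labelled preSC_WT, a ratio of 5.88 (5.34 to 6.50). Its thinned shares were 4.04% of cells (3.70% to 4.39%) in the library labelled preSC_CracdKO and 0.725% (0.575% to 0.901%) in that labelled preSC_WT.

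Anxa11, Anxa4 and Anxa7 were the other members called lower in the library labelled preSC_CracdKO. Anxa11 stood at 13.7 CPM there and at 89.6 CPM in the library labelled preSC_WT, a ratio of 0.153 (0.143 to 0.163). Anxa4 stood at 17.6 CPM in the library labelled preSC_CracdKO and 69.4 CPM in that labelled preSC_WT, a ratio of 0.254 (0.240 to 0.269). Anxa7 stood at 13.5 CPM and 32.3 CPM, a ratio of 0.418 (0.389 to 0.449). Anxa2, at 12.1 CPM in the library labelled preSC_CracdKO and 23.6 CPM in that labelled preSC_WT, missed the 2-fold of the rule with a ratio of 0.514 (0.475 to 0.557). Anxa6 stood at 37.9 CPM in the library labelled preSC_CracdKO and 43.6 CPM in that labelled preSC_WT, a ratio of 0.869. When the 2 clusters with at least 50 cells of both libraries were given the same weight, the ratio of Anxa6 was above 1, at 1.63. Anxa7, at 0.824, and Anxa5, at 1.09, were then no longer called. These values rest on 51 and 78 cells of the library labelled preSC_WT, in clusters 1 and 5. In those cells Anxa6 had 1 UMI in cluster 5 and Anxa7 had 0 UMIs in cluster 1, and no interval was computed. Anxa3 stood at 0.129 CPM (11 UMIs) and 0.723 CPM (48 UMIs) and was below the rule in both. Beside these values, the keratin Krt8 stood at 14.3 CPM in the library labelled preSC_CracdKO and 1982 CPM in that labelled preSC_WT in the same cells.

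**Figure D3:**
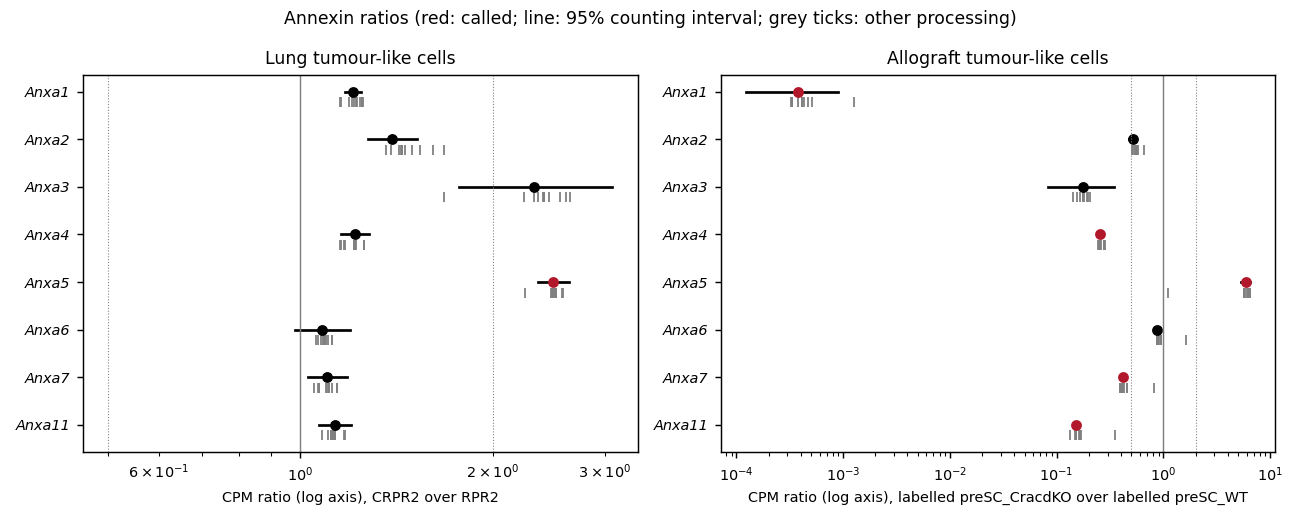
The ratio of CPM in tumour-like cells (horizontal axis, log scale) is shown for the 8 annexins (vertical axis), CRPR2 over RPR2 on the left and the library labelled preSC_CracdKO over that labelled preSC_WT on the right, with 95% counting intervals, called members in red and the values under other processing as grey ticks. Anxa5 is called in both panels, at 2.49 and 5.88, and Anxa1 lies at 1.21 in the lung and 0.000379 in the allografts.

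The allograft tumour-like cells fell into 11 clusters, and each of the 11 was held to at least 90% by 1 library. In the 6 clusters mostly of the library labelled preSC_CracdKO, Anxa1 in the cells of that library ran from 0 CPM in cluster 11 to 0.111 CPM in cluster 9. Cluster 9 was led by stress and hypoxia genes such as Trib3, Ddit3, Ndrg1 and Bnip3, and held the highest Anxa5 and Anxa2 of that library, at 76.9 CPM and 30.4 CPM. Anxa5 was lowest at 29.4 CPM in cluster 3, led by histone genes. In the library labelled preSC_WT, Anxa1 stood at 223 CPM in cluster 4, 169 CPM in cluster 0, 163 CPM in cluster 6 and 52.1 CPM in cluster 2. Cluster 15, with 538 cells of that library and with Mycn among its leading genes, stood apart at 6.72 CPM. Cluster 15 also held the lowest levels of Anxa4, Anxa5 and Anxa11 of that library, at 8.40, 0.560 and 11.5 CPM. The median over the 7 clusters with at least 50 cells of that library was 69.5 CPM for Anxa4 and 83.5 CPM for Anxa11.

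Few cells of 1 allograft lay in clusters of the other. The 6 clusters mostly of the library labelled preSC_CracdKO held 217 cells of that labelled preSC_WT, with a median of 1523 UMIs per cell, and 2 of their barcodes were also in the library labelled preSC_CracdKO. These 217 cells had 82.3 CPM of Anxa1 (36 UMIs) and 38.8 CPM of Anxa5 (17 UMIs). The 13063 cells of the library labelled preSC_CracdKO in those clusters had 0.0585 CPM and 41.3 CPM. The Anxa1 ratio with the same weight for both shared clusters was 0.00126.

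Among the partners in allograft tumour-like cells, S100a10 stood at 31.0 CPM in the library labelled preSC_CracdKO and 2.09 CPM in that labelled preSC_WT, a ratio of 14.8 (12.5 to 17.7). Its partner Anxa2 had the lower level in the same library, as given above. Mfge8, which bridges exposed phosphatidylserine to integrins on engulfing cells, stood at 41.7 CPM in the library labelled preSC_CracdKO and 3.72 CPM in that labelled preSC_WT, a ratio of 11.2 (9.85 to 12.8). Capn2, the large subunit of a calcium-activated protease, stood at 23.5 CPM and 79.6 CPM, a ratio of 0.295 (0.280 to 0.311). These were the only calls, 1 of 1 S100 partner measured, 1 of 1 phosphatidylserine bridge or receptor measured and 1 of 6 calcium-binding partners. From the lists without a call, the 1 gene with the most counts is given, which were Chmp4b, at 171 CPM in the library labelled preSC_CracdKO and 128 CPM in that labelled preSC_WT, Plgrkt, at 49.7 CPM and 81.2 CPM, and the flippase Atp8a1, at 158 CPM and 274 CPM. They stood for 2 membrane repair genes, 1 plasminogen gene and 7 phosphatidylserine exposure genes measured. The formyl peptide receptor list and the other annexins had 0 genes measured, and Anxa13 was not a row of the allograft matrices.

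Club-like cells, marked by the airway secretory protein gene Scgb1a1, numbered 1172 in CRPR2 and 281 in RPR2. No member was called in them, where 2.2% of 6320 genes were called. Anxa5 stood at 261 CPM in CRPR2 and 146 CPM in RPR2, a ratio of 1.79 (1.61 to 2.00), short of the rule. Anxa3 stood at 273 CPM and 168 CPM, a ratio of 1.63 (1.47 to 1.80), and Anxa2 at 379 CPM and 250.3 CPM, a ratio of 1.51 (1.39 to 1.64). Anxa1 stood at 275 CPM in CRPR2 and 256 CPM in RPR2. Anxa6 was lower in CRPR2, with 27.4 CPM against 37.6 CPM in RPR2, a ratio of 0.728 (0.574 to 0.929). The tumour gene Calca was also counted in these cells, at 1509 CPM in CRPR2 and 815 CPM in RPR2, or 20.8% and 23.5% of its level in tumour-like cells. In this cluster 15 of the tumour markers were raised. Whether these counts were RNA of tumour cells or of the club-like cells themselves was not tested, nor was their part in the annexin levels.

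In macrophage-like cells (241 in CRPR2 and 74 in RPR2) and monocyte-like cells (157 and 174), no member was called, against 16% and 10.6% of all genes measured. Anxa5 stood at 515 CPM in CRPR2 and 586 CPM in RPR2 in the macrophage-like cells, a ratio of 0.879 (0.726 to 1.07). Anxa2 stood at 569 CPM in CRPR2 and 474 CPM in RPR2, Anxa1 at 284 CPM and 266 CPM, and Anxa4 at 238 CPM and 239 CPM. Anxa3 stood at 204 CPM in CRPR2 and 131 CPM in RPR2, a ratio of 1.56 (1.07 to 2.34). The tumour gene Calca was also in the macrophage-like cells, at 1689 CPM in CRPR2 and 408 CPM in RPR2. This was 23.2% and 11.8% of its level in tumour-like cells, and the part of tumour RNA in these annexin levels was not tested. In monocyte-like cells Anxa1 was lower in CRPR2, with 248.7 CPM against 399 CPM in RPR2, a ratio of 0.624 (0.509 to 0.762). Of the receptors for Anxa1, Fpr2 stood at 13.8 CPM (8 UMIs) in CRPR2 and 59.5 CPM (47 UMIs) in RPR2 in those cells, a ratio of 0.232 (0.0948 to 0.496). Fpr1 stood at 3.45 CPM (2 UMIs) in CRPR2 and 25.3 CPM (20 UMIs) in RPR2, a ratio of 0.136 (0.0155 to 0.562). Both passed the rule, and they were named after their values were seen. Of the other lists in those cells, Ano6 and Plscr1 of phosphatidylserine exposure were called higher, with ratios of 2.27 (1.06 to 5.10) and 2.05 (0.769 to 5.77). The integrin subunits Itgav and Itgb3, of the receptors for bridged phosphatidylserine, were called lower. Itgav stood at 24.2 CPM in CRPR2 and 53.2 CPM in RPR2, and Itgb3 had 0 UMIs in CRPR2 and 20 UMIs in RPR2.

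B-cell-like and plasma-cell-like cells had low levels of most members. Among B-cell-like cells (761 in CRPR2 and 393 in RPR2), Anxa1 was called higher and Anxa2 lower in CRPR2, where 4.89% of 4967 genes were called. Anxa1 stood at 25.0 CPM (29 UMIs) in CRPR2 and 6.74 CPM (7 UMIs) in RPR2, a ratio of 3.72 (1.59 to 10.05). The tumour gene Calca went the same way in these cells, with 216 CPM in CRPR2 and 19.2 CPM in RPR2, and its part in the Anxa1 ratio was not tested. Anxa2 stood at 24.2 CPM (28 UMIs) in CRPR2 and 49.1 CPM (51 UMIs) in RPR2, a ratio of 0.492 (0.299 to 0.796). In plasma-cell-like cells (146 in CRPR2 and 70 in RPR2), Anxa5 was called higher, at 61.8 CPM (91 UMIs) in CRPR2 and 29.4 CPM (30 UMIs) in RPR2, a ratio of 2.11 (1.38 to 3.30). There 13% of 3544 genes were called, and 2.68% as higher.

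The T-cell-like class was made of different cells in the lung libraries, so that its members were read within the 1 cluster that both held. Cluster 2, led by Il7r, Cxcr6 and Ccl5, held 882 of the 884 T-cell-like cells of CRPR2 and 595 of the 4702 of RPR2. No member was called in cluster 2, where 2.76% of 5185 genes were called. Anxa6 stood at 133 CPM in CRPR2 and 149 CPM in RPR2, Anxa5 at 81.2 CPM and 59.5 CPM, and Anxa2 at 71.2 CPM and 109.8 CPM, a ratio of 0.648 (0.515 to 0.813). The other clusters held cells of RPR2 almost alone. Clusters 1 and 11 of RPR2, led by genes of immature T cells such as Rag1, Dntt and Ccr9, held 419 CPM and 502 CPM of Anxa2. Anxa6 in these clusters stood at 22.5 CPM and 18.2 CPM. Over the whole class Anxa1 and Anxa6 were called higher and Anxa2 lower in CRPR2, where 28.5% of 5902 genes were called. Over all immune cells together, whose makeup differed in the same way, Anxa1, Anxa3, Anxa4 and Anxa5 were called higher, where 24.6% of 5995 genes were called and 7.29% as higher.

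Classes of few cells in 1 library were given no comparison. Neutrophil-like cells had the highest Anxa1 of CRPR2, at 685 CPM in 77 cells, and 31 such cells of RPR2 had 1091 CPM. Fibroblast-like cells had 437 CPM of Anxa1 and 641 CPM of Anxa5 in 142 cells of CRPR2, and 259 CPM and 469 CPM in 45 cells of RPR2. NK-like cells had 591 CPM of Anxa2 and 210.2 CPM of Anxa6 in 107 cells of CRPR2, the highest Anxa6 of that library.

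Within CRPR2, 10 named classes held at least 50 cells, and from the highest level down tumour-like cells had rank 3 for Anxa1, after neutrophil-like and fibroblast-like cells. The intervals of fibroblast-like and tumour-like cells overlapped. Tumour-like cells had rank 9 for Anxa2, rank 5 for Anxa5 and rank 1 for Anxa7 and Anxa11. Anxa7 of CRPR2 tumour-like cells, 67.7 CPM, did not differ from the 65.2 CPM of club-like cells beyond counting error. Within RPR2, tumour-like cells had rank 2 of 7 classes for Anxa1, after monocyte-like cells, rank 4 for Anxa5 and the lowest Anxa2. Anxa11 was highest in tumour-like cells of RPR2 too, at 89.9 CPM, next to 78.0 CPM in club-like cells. Anxa5 was lowest in B-cell-like cells of both libraries, at 42.3 CPM in CRPR2 and 26.9 CPM in RPR2. In unnamed cluster 12, with 497 cells of CRPR2 and 1 of RPR2 and led by Tm4sf1, Tff1 and Spp1, Anxa2 stood at 1631 CPM, Anxa5 at 1112 CPM, Anxa1 at 523 CPM, Anxa3 at 359.9 CPM and Anxa7 at 79.8 CPM. This cluster was left out of the ranks, and its Anxa1, Anxa5 and Anxa7 were above those of CRPR2 tumour-like cells. Its leading genes Tff1 and Tm4sf1 stood at 0.375 and 2.10 CPM in CRPR2 tumour-like cells and at 0.314 and 0.403 CPM in those of RPR2. S100a6, also among its leading genes, stood far above these levels in tumour-like cells of both libraries and was higher in CRPR2, as given above. Whether RNA of this cluster was in the tumour-like cells was not tested.

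In the allografts, stromal cells of the library labelled preSC_WT held the highest levels of Anxa1, Anxa2, Anxa3 and Anxa5 of its 8 classes. Fibroblast-like cells (465) had 1223 CPM of Anxa2, 549 CPM of Anxa1, 449.8 CPM of Anxa5 and 441 CPM of Anxa3. Pericyte-like cells (173) had 653 CPM of Anxa2, 484 CPM of Anxa1 and 414 CPM of Anxa5, and endothelial-like cells (252) had 996, 202 and 392 CPM. The Anxa5 levels of fibroblast-like and pericyte-like cells did not differ beyond counting error. Tumour-like cells of that library were lowest of the 8 classes for Anxa5, at 7.02 CPM. The library labelled preSC_CracdKO held 6 fibroblast-like, 26 pericyte-like and 17 endothelial-like cells, which had 406, 418 and 389 CPM of Anxa5 and 215, 302 and 64.8 CPM of Anxa1. Anxa1 was thus detected in stromal cells of the library in which its tumour-like cells had 5 UMIs. Macrophage-like cells had 257 CPM of Anxa5 in 40 cells of the library labelled preSC_CracdKO and 261 CPM in 734 cells of that labelled preSC_WT.

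**Figure D4:**
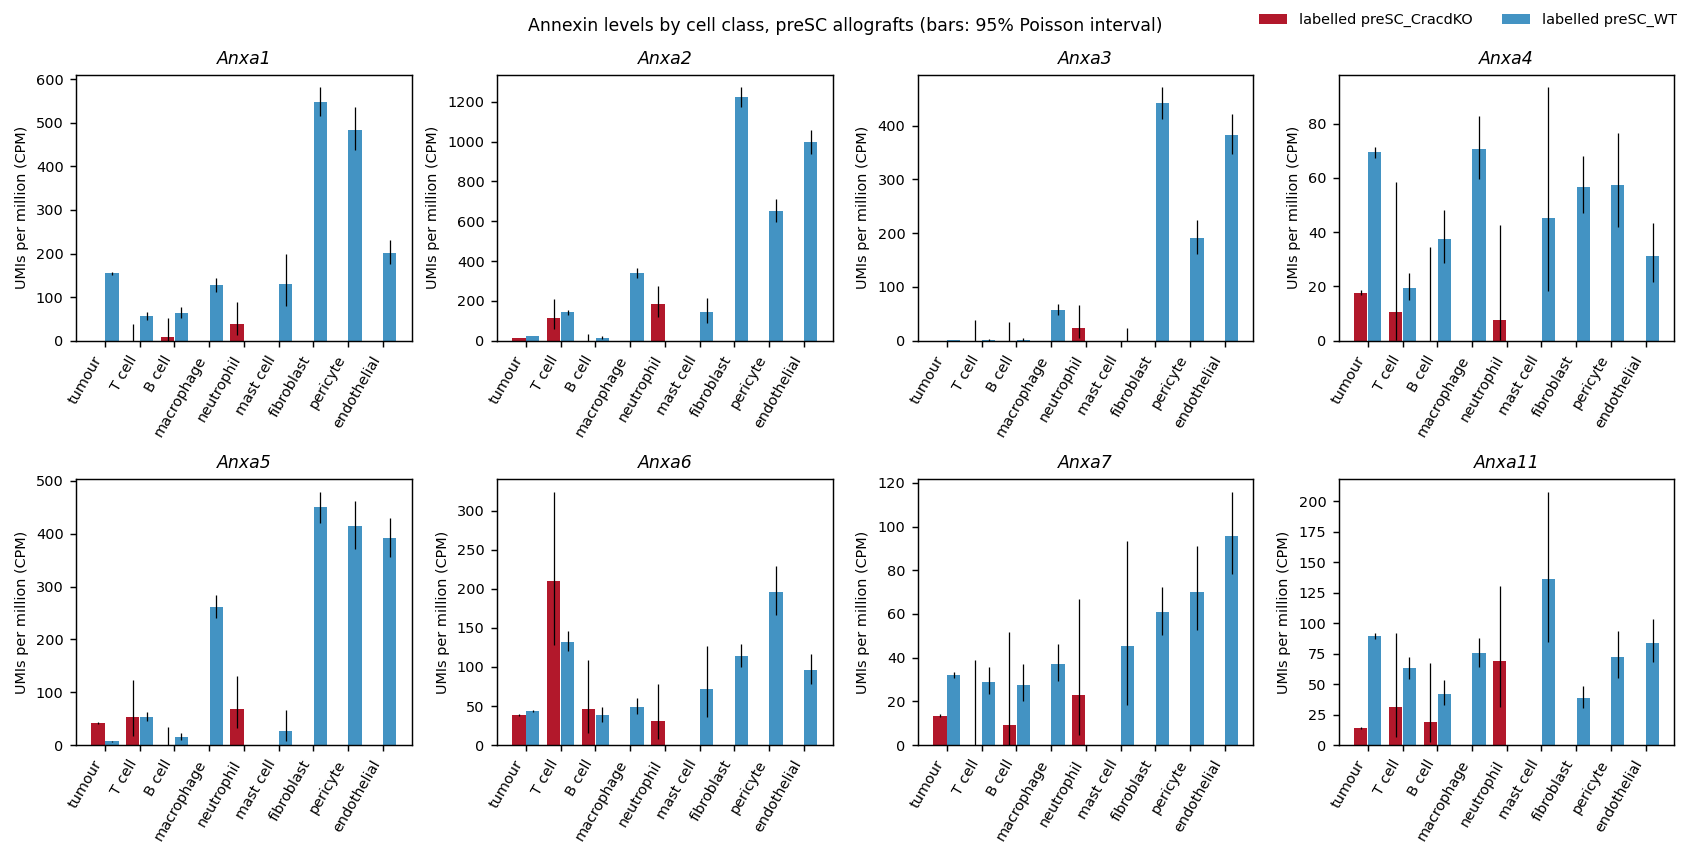
Each panel shows 1 annexin in CPM (vertical axis) in the cell classes of the allografts (horizontal axis) for the library labelled preSC_CracdKO (red) and that labelled preSC_WT (blue), drawn where a library held at least 50 cells of the class, with 95% Poisson intervals. Anxa1, Anxa2, Anxa3 and Anxa5 are highest in fibroblast-like cells of the library labelled preSC_WT, at 549, 1223, 441 and 449.8 CPM.

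T-cell-like and B-cell-like cells could be compared between the allografts, on few cells of the library labelled preSC_CracdKO (71 and 101, against 1703 and 1096 in that labelled preSC_WT). Anxa1 and Anxa7 passed the rule as lower in T-cell-like cells, where 44% of 7704 genes were called and 31.5% as lower, and Anxa1, Anxa4, Anxa7 and Anxa11 in B-cell-like cells, where 35.2% of 7310 genes were called and 23.1% as lower. Each of these calls rested on 0 to 2 UMIs in the library labelled preSC_CracdKO. The interval of the ratio held 1 for Anxa7 in T-cell-like cells, where it ran from 0 to 1.37, and in B-cell-like cells for Anxa7 (0.00835 to 1.98) and Anxa11 (0.0530 to 1.67). Anxa1 in T-cell-like cells had 0 UMIs in that library, which allows up to 31.6 CPM (a floor of 3 UMIs over the class), and 55.9 CPM in the library labelled preSC_WT, so that against this floor it was at least 1.77-fold lower. The exact interval of the ratio is wider and ran from 0 to 0.702. In B-cell-like cells Anxa1 had 9.32 CPM (1 UMI) in the library labelled preSC_CracdKO and 64.5 CPM in that labelled preSC_WT, a ratio of 0.144 (0.00362 to 0.823). Krt8 was also counted in the same immune cells of the library labelled preSC_WT, at 527 CPM in T-cell-like and 562 CPM in B-cell-like cells. This was 26.6% and 28.4% of its level in tumour-like cells. Anxa1 stood at 36.2% and 41.8% of its tumour level there. The part of tumour RNA in the Anxa1 of these cells was not tested. In macrophage-like cells of that library Anxa1 stood at 82.6% of its tumour level, with Krt8 at 39.9%. Anxa6, at 210.4 CPM in T-cell-like cells of the library labelled preSC_CracdKO and 133 CPM in those of that labelled preSC_WT, had a ratio of 1.59 (0.959 to 2.48), whose interval held 1.

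Across the 29 sums of a class in a library with at least 50 cells, members differed in how alike their levels were on the log2(CPM + 1) scale. The points share libraries and may share tumour RNA, so the coefficients are descriptions. Pearson's r was highest between Anxa2 and Anxa5 (0.848), then between Anxa3 and Anxa5 (0.793) and between Anxa1 and Anxa7 (0.696). Anxa6 had the lowest coefficients, from -0.188 with Anxa1 to 0.135 with Anxa5. Among 8642 genes reaching 50 CPM in some sum, those most like Anxa5 were Lxn (0.882), Itpripl2 (0.862) and Ifnar2 (0.818). Those most like Anxa1 were Ifitm3 (0.860), Ifih1 (0.855) and Cebpd (0.843), and those most like Anxa2 were Xdh (0.850), Itm2b (0.825) and Dhrs3 (0.821).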

How the data were processed

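The 4 libraries were read as deposited by the authors, in raw UMI counts with no normalization. Per the file headers, Cell Ranger 6.1.2 made the lung matrices and Cell Ranger 5.0.0 those of the allografts. The tools listed in the submitters' processing notes are Seurat 1.8.2, Scanpy 1.8.2 and Cell Ranger 6.1.2, with the build mm10. The annotation release is not given in the sources used here. Cells with 300 genes or more and at most 15% mitochondrial UMIs were kept. Scrublet in scanpy 1.11.5 removed 259 doublets in RPR2 and 356 in the library labelled preSC_WT. In the other 2 libraries its own cut-off found less than 0.5%, so the top-scoring cells were taken out instead, 0.8% for each 1000 barcodes, which took 1145 cells of CRPR2 and 2083 of the library labelled preSC_CracdKO. Each pair was clustered without integration (2000 variable genes, 50 components, 15 neighbours, Leiden resolution 1.0 with leidenalg 0.10.2, seed 1), giving 24 clusters in each pair.

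Clusters were named from marker genes. A name was refused where the leading genes held more markers of another class, where a non-tumour class had none of its own leading, or where the cells were shallow as well as without a leading marker of their own. The naming rule was set with the clusters known. The members, lists and markers were chosen with earlier results of these data known. Named genes were the 8 members, the called genes of each list in tumour-like cells or else its gene with the highest CPM, and for Anxa1, Anxa2 and Anxa5 the 3 genes with the highest r. S100a6, S100a10 of the lung, Cracd, Calca, Krt8, Anxa11os, the leading genes of clusters and the list genes of monocyte-like cells fall outside this rule and were chosen with their values seen. Apart from those of S100a6 in lung classes, list calls in classes other than tumour-like and monocyte-like cells are not given. Ratios carry exact conditional binomial intervals, levels exact Poisson intervals. PCR copies are removed by UMIs, and the intervals cover counting error only. The call rule was run on simulated counts that held counting error only, with changes larger than 2-fold. That run cannot speak for the spread between libraries or for changes near 2-fold. TMM factors came from edgeR 4.0.16 in R 4.3.3.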

Additional observations from a re-analysis of the deposited data

Results flagged for a closer look

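In tumour-like cells 6 members went opposite ways in the pairs, higher in CRPR2 than in RPR2 and lower in the library labelled preSC_CracdKO than in that labelled preSC_WT. The ratios were 1.21 in the lung and 0.000379 in the allografts for Anxa1, and 1.39 and 0.514 for Anxa2. For Anxa3 they were 2.33 and 0.178, and for Anxa4 1.22 and 0.254. For Anxa7 they were 1.10 and 0.418, and for Anxa11 1.13 and 0.153. Anxa1 is 1 of the genes the family was selected on. None of the 6 was called in the lung, and Anxa3 was below 20 CPM in both pairs. The share of all genes that went opposite ways was not computed. Directions in the allografts follow the labels, and whether the Cracd levels there go against those labels was not tested. Each group is 1 library, so the difference between the pairs was not tested. Cracd itself (C530008M17Rik) was lower in CRPR2 (23.6 CPM) than in RPR2 (31.6 CPM) and higher in the library labelled preSC_CracdKO (84.6 CPM) than in that labelled preSC_WT (7.20 CPM).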

How the results depend on the processing

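No paired analysis was possible because each group held 1 library, and no replicate could be left out. In lung tumour-like cells Anxa5 was the 1 member called under each alternative run except that with no minimum level, where Anxa3 joined it to make 2. Its ratio ran from 2.25 to 2.58, and that of Anxa1 from 1.15 to 1.25. In the allografts 5 members were called, 6 with no minimum level, where Anxa3 joined as lower, and 3 (Anxa1, Anxa4 and Anxa11) with 50 CPM asked of the higher library. The number was also 3 when each tumour cluster was given the same weight, which rests on 2 clusters with 51 and 78 cells of the library labelled preSC_WT. There the Anxa5 ratio was 1.09, that of Anxa7 0.824 and that of Anxa6 1.63. The UMIs of the library labelled preSC_WT were few in these clusters, as given above, and no interval was computed. The cause was not tested. Over the alternatives the Anxa1 ratio ran from 0.000326 to 0.00126, that of Anxa4 from 0.245 to 0.282 and that of Anxa11 from 0.133 to 0.351. No allograft value was left without clusters held to 90% by 1 library.

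In the other lung classes there were 6 calls among 42 measured values of a member in a class. There were 13 of 41 with cells thinned to 1000 UMIs, 11 of 48 with no minimum level and 3 of 26 with 50 CPM. In the other allograft classes there were 6 of 11, then 2 of 7 with cells of 500 genes and at most 10% mitochondrial UMIs. There were 3 of 10 by the mean of each cell's own CPM, 10 of 16 with no minimum level and 2 of 6 with 50 CPM. Thinned cells gave no value there, since under 50 cells were left. In the partner lists 4 genes were called in tumour-like cells, and 37 with no minimum level, a run that also counts genes below 20 CPM. The share of all genes called was not computed for these alternatives. The larger share of cells with a UMI was in CRPR2 or the library labelled preSC_CracdKO in 9 of 16 cases when thinned and in 4 when unthinned. The alternatives without clusters led by a marker of another class, and with unnamed clusters 10, 14 and 17 in the allograft tumour class, were chosen after seeing the data.

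Few cells limit the allograft T-cell-like and B-cell-like classes, with 71 and 101 cells of the library labelled preSC_CracdKO, where calls rest on 0 to 2 UMIs. With 1 library a group, no spread between animals or cultures is known.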
